A study of Homo sapiens with 8 samples.

Results

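NRF2, encoded by NFE2L2, is the transcription factor that drives the cell's antioxidant and detoxifying genes, and its transcripts and those of 8 of its targets were followed in thyroid cells given thyroid hormone. The targets were HMOX1, NQO1, GCLM, GCLC, SLC7A11, SRXN1, TXNRD1 and AKR1C1. The 9 genes were found by symbol among 56832 gene rows, and all 9 passed the filter on low counts. The cells were Nthy-ORI, an epithelial line derived from normal human thyroid and immortalised with a viral T antigen. In all 4 groups the cells had first been starved of hormone for 24 h in medium free of phenol red, with charcoal-stripped serum. They then received the NaOH vehicle or 10 nM T3, the active thyroid hormone, and were collected after 6 h or 24 h, with 2 libraries per group. Total RNA was depleted of ribosomal RNA and sequenced, and the series asks which transcripts T3 controls through its receptor TR-beta and the SWI/SNF chromatin remodelers.

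In unstressed cells NRF2 protein is held by KEAP1, which presents it to a ubiquitin ligase, and it is degraded. Oxidants and electrophiles modify KEAP1, and NRF2 then accumulates, pairs with small MAF proteins and binds antioxidant response elements near its target genes, where BACH1 otherwise represses some of them. The thyroid makes hydrogen peroxide for hormone synthesis, and NRF2 targets are known there as part of its protection against that oxidant. NRF2 itself is controlled mainly through protein stability, so its mRNA need not follow its activity.

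Promoter sequence was looked up for all 9 genes, of which GCLM, SLC7A11 and TXNRD1 were higher in the libraries labelled T3 at 24 h. These 3 encode a glutathione synthesis subunit, a cystine transporter subunit and a thioredoxin reductase. RefSeq windows from 250 bases before to 50 bases after each start, on GRCh38.p14, were found for 7 of the 9 genes, with 9 windows in all. HMOX1 and SLC7A11 had no entry and could not be searched. The core of the antioxidant response element was searched as TGACNNNGC on both strands, and it was found in 3 of the 9 windows. These belong to 2 of the 7 genes, GCLM and TXNRD1. Sequence outside the windows was not searched, so sites of the other targets may have been missed. The core was present in 13.3% of all 35116 windows and in 14.5% of the 14391 windows of tested genes. The stretches with the matches are shown 5′ to 3′ on the strand of the gene, with the matches in capitals.
GCLM, chr1:93909456-93909509, minus strand: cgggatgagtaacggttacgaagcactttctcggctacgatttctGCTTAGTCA
TXNRD1, chr12:104215635-104215779, plus strand: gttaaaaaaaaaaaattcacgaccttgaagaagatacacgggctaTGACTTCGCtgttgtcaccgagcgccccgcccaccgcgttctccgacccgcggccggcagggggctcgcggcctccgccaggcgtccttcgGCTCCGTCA
The GCLM match starts 34 bases before the start and reads TGACTAAGC on the opposite strand. The TXNRD1 matches start 99 and 8 bases before the first listed start, the first on the strand of the gene and the second, TGACGGAGC, on the opposite strand. A further TXNRD1 match, TGACAAAGC on the opposite strand at chr12:104286930-104286938, lies 102 bases before another start of that gene. The DR4 thyroid hormone response element, a spaced direct repeat of the receptor half-site, was searched by its consensus letters on both strands and found in 0 of the 9 windows, against 0.0199% of all windows. These matches describe letters in the windows and were not tested for binding.

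Reads counted in genes ran from 2517983 to 8201606 per library, so 3 counts in a library corresponded to 0.366 to 1.19 CPM, where CPM is counts per 1e6 after TMM scaling of the library size. Nothing states that the libraries of a group came from separate cultures, so the p-values reflect how far these libraries differ from each other, a spread that may be technical. That spread was estimated per gene over all 4 groups together, although their pairs differed unequally. Among genes with at least 20 counts, chi-square per degree of freedom between the 2 libraries was 4.1 for vehicle and 2.69 for T3 at 6 h. At 24 h it was 27.8 under the vehicle label and 7.24 under the T3 label. The labels name no batch or date, so time and any difference in handling between 6 h and 24 h cannot be told apart. KLF9 and HR, which encode nuclear proteins long known as targets of the thyroid hormone receptor, were used to check the labels. KLF9 rose from 0.861 to 13.7 CPM with T3 at 6 h, whereas at 24 h the vehicle label went with 26.1 CPM and the T3 label with 3.07 CPM. HR was likewise higher with T3 at 6 h (63.5 and 109 CPM) and lower in the libraries labelled T3 at 24 h (4.09 and 0.213 CPM). Both target genes thus went against the labels at 24 h, and every 24 h direction below is between libraries named by their labels. An exchange of the 24 h labels was not tested; it would turn the sign of every 24 h response and put the other treatment in each comparison with 6 h. Of 8 thyroid markers, TG and TSHR had 0 counts in all 6 h libraries, while the summed list ran from 27 to 43.4 CPM at 6 h and from 148 to 192 CPM at 24 h. Epithelial markers summed to 1060 to 1230 CPM at 6 h and 404 to 576 CPM at 24 h. Fibroblast-associated genes summed to 114 to 215 CPM at 6 h and 630 to 1250 CPM at 24 h. COL1A1 made most of the fibroblast sum, with 189 CPM at 6 h and 1174 CPM at 24 h under vehicle. Over the same step PDGFRB went from 22.35 to 24.8 CPM and DCN from 3.04 to 0 CPM. Endothelial markers summed to at most 1.27 CPM, immune markers to at most 2.86 CPM and C cell markers to at most 3.39 CPM, with CALCA, which encodes calcitonin, at 0. The thyroid, epithelial and fibroblast sums moved with time, but the markers of a list did not all move together. The part of these markers in the results below was not tested.

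The largest pattern in the 9 genes was a drop in target transcripts between 6 h and 24 h, seen under both treatments, while NFE2L2 itself was higher at 24 h. Over all tested genes, 64.5% were called with time under vehicle and 70.4% under T3. SRXN1 and AKR1C1 passed the filter on low counts only through 6 h libraries, which fixed their direction. The NFE2L2 calls were lost with the library trends in GC content and gene length removed. T3 at 6 h raised only GCLM past the threshold. At 24 h GCLM, SLC7A11 and TXNRD1 were higher and AKR1C1 was lower in the libraries labelled T3. For 1 gene, SLC7A11, the difference between the responses at 24 h and 6 h passed the threshold. Each of these T3 calls was lost under some alternative settings, which are given with the gene.

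**Figure D1:**
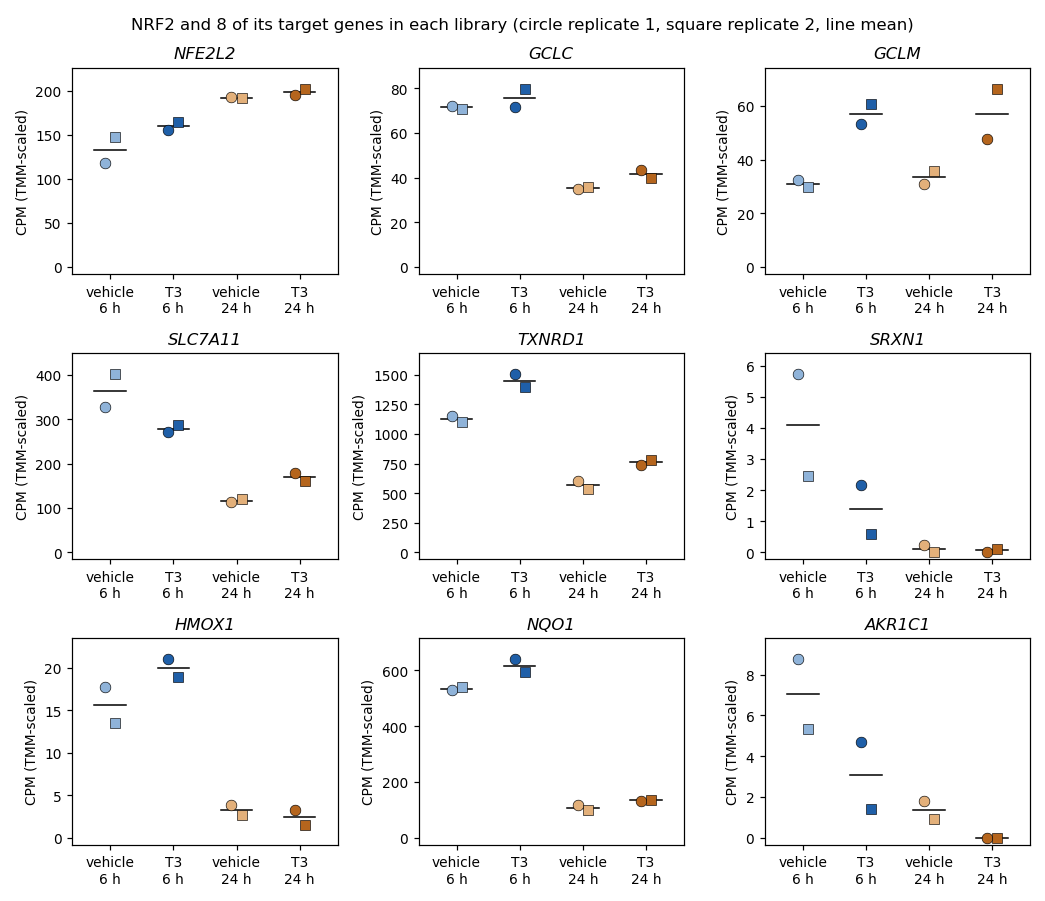
TMM-scaled CPM of NFE2L2 and the 8 targets in each library (circles for replicate 1, squares for replicate 2, each panel on its own linear axis from 0), with the 4 groups on the horizontal axis and a line at each group mean. HMOX1, NQO1, GCLC, SLC7A11 and TXNRD1 sit lower in all 4 libraries at 24 h than in all 4 at 6 h, whereas GCLM sits near 31.1 CPM in vehicle and 56.9 CPM in T3 at 6 h and at similar levels at 24 h.

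NFE2L2 (chromosome 2, 177227595 to 177392697, minus strand, GRCh38) gave 118 and 147 CPM with vehicle and 155 and 164 CPM with T3 at 6 h. The later libraries gave 192 and 191 CPM under the vehicle label and 195 and 202 CPM under the T3 label. The 24 h libraries were all above the 6 h libraries, and within each time the libraries named T3 stood above those named vehicle. Neither T3 difference passed the test (6 h log2 fold change 0.28, SE 0.13, edgeR adjusted p = 0.216; 24 h 0.05, SE 0.12, edgeR adjusted p = 0.833). From 6 h to 24 h the gene rose by 0.54 on the log2 scale under vehicle (SE 0.13, edgeR adjusted p = 0.00152), from 132 ± 21.0 to 192 ± 0.515 CPM (SD, n = 2). Under T3 the same step was 0.31 (SE 0.13, edgeR adjusted p = 0.0341). With the library trends in GC content and gene length removed, the step was 0.25 under vehicle (edgeR adjusted p = 0.0628) and 0.02 under T3 (edgeR adjusted p = 0.899). The T3 step was called in 6 of 14 alternatives.

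GCLC and GCLM encode the catalytic and modifier subunits of glutamate-cysteine ligase, which catalyses the rate-limiting step of glutathione synthesis. GCLM (chromosome 1, 93885205 to 93909456, minus strand) gave 32.2 and 29.9 CPM with vehicle and 53.2 and 60.5 CPM with T3 at 6 h. The 24 h values were 31.0 and 35.7 CPM under the vehicle label and 47.7 and 66.3 CPM under the T3 label. The T3 and vehicle libraries did not overlap at either time, and the 4 vehicle libraries lay within 29.9 to 35.7 CPM. GCLM was the single gene of the 9 called at 6 h, where 7.64% of all tested genes were called, with a log2 response of 0.88 (SE 0.20, edgeR adjusted p = 0.0146). The 24 h response was 0.77 (SE 0.18, edgeR adjusted p = 0.0113). Between the times it did not pass the test under vehicle (0.10, SE 0.20, edgeR adjusted p = 0.668) or T3 (0.00, SE 0.18, edgeR adjusted p = 0.995), and the difference between its T3 responses was -0.10 (SE 0.27, edgeR adjusted p = 0.907).

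GCLM transcripts are poor in G and C (37.3%), in the lowest of 5 equal bins of tested genes by GC content, and genes of that bin had a median log2 fold change of 0.304 at 6 h and 0.326 at 24 h. With the GC and length trends removed, the GCLM response was 0.52 at 6 h (edgeR adjusted p = 0.162) and 0.41 at 24 h (edgeR adjusted p = 0.273). That setting also turned its change from 6 h to 24 h into a fall, to -0.73 under vehicle (edgeR adjusted p = 0.00503) and -0.84 under T3 (edgeR adjusted p = 0.00045). Without any 1 of the 4 libraries at 6 h the 6 h call was lost, with a response of 0.78 to 0.97 and the highest edgeR adjusted p at 0.175. The 24 h call was lost without vehicle replicate 1 (0.65) and without T3 replicate 2 (0.50).

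GCLC (chromosome 6, 53497341 to 53616970, minus strand) gave 72.0 and 70.8 CPM with vehicle and 71.7 and 79.7 CPM with T3 at 6 h, and the groups overlapped. At 24 h it gave 35.0 and 35.7 CPM under the vehicle label and 43.2 and 39.9 CPM under the T3 label. Its T3 responses did not pass the test at 6 h (0.09, SE 0.15, edgeR adjusted p = 0.779) or at 24 h (0.23, SE 0.15, edgeR adjusted p = 0.338). The catalytic subunit fell with time, by 1.01 on the log2 scale under vehicle (SE 0.16, edgeR adjusted p = 2.26e-05) and by 0.87 under T3 (SE 0.15, edgeR adjusted p = 5.16e-05).

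SLC7A11 encodes the cystine transporter subunit xCT, which brings in the cystine from which glutathione is built, and it is also a known target of the stress factor ATF4. SLC7A11 (chromosome 4, 138164097 to 138242349, minus strand) gave 328 and 402 CPM with vehicle and 271 and 287 CPM with T3 at 6 h. The values at 24 h were 114 and 119 CPM under the vehicle label and 179 and 161 CPM under the T3 label. The T3 libraries were thus below vehicle at 6 h and above it at 24 h, with no overlap at either time. The 6 h response was -0.38 (SE 0.12, edgeR adjusted p = 0.0708), and the 24 h response was 0.54 (SE 0.13, edgeR adjusted p = 0.0113). The difference between the responses was 0.92 (SE 0.18, edgeR adjusted p = 0.0119), and SLC7A11 was the only gene of the 9 for which it passed, where 1.84% of all tested genes did. With the 24 h labels exchanged, the 24 h response would be -0.54 and the difference -0.16. The same exchange would give GCLM and TXNRD1, whose fitted T3 responses were positive at both times, responses of opposite sign. From 6 h to 24 h the gene fell by 1.64 on the log2 scale under vehicle (SE 0.13, edgeR adjusted p = 8.98e-09) and by 0.72 under T3 (SE 0.12, edgeR adjusted p = 6.58e-05).

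SLC7A11 transcripts also lie in the lowest GC bin (35.4% G and C). With the GC and length trends removed, the 6 h response became -0.72 (edgeR adjusted p = 0.000655) and the 24 h response 0.09 (edgeR adjusted p = 0.712). The 24 h call was also lost without T3 replicate 1 (0.46, edgeR adjusted p = 0.0629). The difference between the responses was called in 10 of 13 alternatives. It was lost without vehicle replicate 2 (0.71, edgeR adjusted p = 0.108), T3 replicate 1 (0.85, edgeR adjusted p = 0.13) or T3 replicate 2 (0.95, edgeR adjusted p = 0.0947) at 6 h. An antisense gene, SLC7A11-AS1, covers 8.97% of the exonic length and has no row under that name. Reads of SLC7A11 and of its antisense partner cannot be told apart where they overlap. The strand setting of the counting is not given in the sources used here.

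TXNRD1 and SRXN1 serve the thioredoxin system: TXNRD1 encodes the cytosolic thioredoxin reductase, and SRXN1 encodes sulfiredoxin, which restores overoxidised peroxiredoxins. TXNRD1 (chromosome 12, 104215779 to 104350305, plus strand) gave 1154 and 1101 CPM with vehicle and 1505 and 1395 CPM with T3 at 6 h. By 24 h these were 605 and 533 CPM under the vehicle label and 735 and 783 CPM under the T3 label. The T3 libraries were higher at both times without overlap, and every 24 h library was below every 6 h library. Its T3 response was 0.36 at 6 h (SE 0.12, edgeR adjusted p = 0.0797) and 0.42 at 24 h (SE 0.12, edgeR adjusted p = 0.0336), and the difference between them was 0.05 (SE 0.17, edgeR adjusted p = 0.931). The 24 h call was kept in 3 of 14 alternatives, with a highest edgeR adjusted p of 0.227. That call was lost with the replicate block, no filter, the GC and length correction or only the libraries compared. It was also lost without any 1 library other than vehicle replicate 1 at 24 h. Over the 14 alternatives the 24 h response ran from 0.29 to 0.48. The 6 h response passed in 5 of 14, among them DESeq2 (0.38, DESeq2 adjusted p = 0.0185). From 6 h to 24 h TXNRD1 fell by 0.99 under vehicle (SE 0.12, edgeR adjusted p = 2.31e-06) and by 0.93 under T3 (SE 0.12, edgeR adjusted p = 3.02e-06) on the log2 scale.

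SRXN1 (chromosome 20, 646615 to 653370, minus strand) was near the limit of detection, with 19 and 6 counts under vehicle and 6 and 3 counts under T3 at 6 h. By 24 h it had 1 and 0 counts under the vehicle label and 0 and 1 count under the T3 label. Over the groups it had 25 and 9 counts at 6 h and 1 in each at 24 h. The 6 h response of -1.74 (SE 0.86) did not pass (edgeR adjusted p = 0.243), and at 24 h both groups were below 3 counts and no fold is given. The pooled level per library size was 45 times lower at 24 h than at 6 h under vehicle, and the 95% counting interval ran from 7.36 to 1850. Under T3 it was 15.1 times lower, with an interval of 2.09 to 662. The edgeR adjusted p-values, which belong to the fitted changes, were 0.00102 under vehicle and 0.0173 under T3. SRXN1 passed the filter on low counts only through 6 h libraries, so these p-values are no support for the fall. Without vehicle replicate 1 at 6 h both calls were lost (edgeR adjusted p = 0.0709 and 0.0529), and the call under T3 was also lost without T3 replicate 1 at 6 h (edgeR adjusted p = 0.21) or at 24 h (edgeR adjusted p = 0.058). AL121758.1, a protein-coding gene on the same strand, covers 85% of the exonic length of SRXN1 and has no row under that name. The SRXN1 counts are therefore uncertain.

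HMOX1 encodes heme oxygenase 1, which breaks down heme and which BACH1, heat and metals are also known to control. HMOX1 (chromosome 22, 35380361 to 35394214, plus strand) gave 17.8 and 13.5 CPM with vehicle and 21.0 and 18.9 CPM with T3 at 6 h. Levels at 24 h were 3.84 and 2.69 CPM under the vehicle label and 3.25 and 1.5 CPM under the T3 label. The T3 libraries were above vehicle at 6 h, the groups overlapped at 24 h, and all 24 h libraries were far below all 6 h libraries. No T3 response passed the test (6 h 0.33, SE 0.34, edgeR adjusted p = 0.607; 24 h -0.47, SE 0.44, edgeR adjusted p = 0.519). Over time HMOX1 fell by 2.29 under vehicle (SE 0.39, edgeR adjusted p = 6.95e-05) and by 3.10 under T3 (SE 0.38, edgeR adjusted p = 1.38e-06) on the log2 scale. The counts behind these levels ran from 13 to 94 per library, and HMOX1 lies in the highest GC bin (58.1%), in which the median log2 change with time was -0.96 under vehicle and -1.20 under T3. The fall was called in all 14 alternatives under either treatment, the GC and length correction included.

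NQO1 encodes the quinone reductase often read as a marker of NRF2 activity. NQO1 (chromosome 16, 69706996 to 69726951, minus strand) gave 528 and 539 CPM with vehicle and 639 and 593 CPM with T3 at 6 h. At 24 h it gave 115 and 98.5 CPM under the vehicle label and 130 and 136 CPM under the T3 label. The T3 libraries stood above vehicle at both times, but neither response passed the test (6 h 0.21, SE 0.11, edgeR adjusted p = 0.301; 24 h 0.32, SE 0.12, edgeR adjusted p = 0.0824). NQO1 fell from 533 ± 7.36 to 107 ± 11.7 CPM under vehicle (SD, n = 2), by 2.32 on the log2 scale (SE 0.12, edgeR adjusted p = 5.71e-11). Under T3 it fell by 2.21 (SE 0.12, edgeR adjusted p = 4.79e-11), from 616 ± 32.5 to 133 ± 4.13 CPM (SD, n = 2). An antisense gene, AC092115.2, covers 17.7% of the exonic length of NQO1 and has no row under that name. Reads of NQO1 and of that gene cannot be told apart where they overlap. In bulk RNA, fewer cells with a transcript and less of it per cell cannot be told apart, here and for the other falls.

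AKR1C1 encodes an aldo-keto reductase that reduces steroids and reactive carbonyls. AKR1C1 (chromosome 10, 4963253 to 4983283, plus strand) had 29 and 13 counts under vehicle and 13 and 7 counts under T3 at 6 h. At 24 h it had 8 and 6 counts under the vehicle label and 0 in both libraries labelled T3. The order of the groups was vehicle at 6 h (7.03 ± 2.42 CPM), T3 at 6 h (3.06 ± 2.33 CPM), vehicle at 24 h (1.35 ± 0.644 CPM) and T3 at 24 h, each with SD over 2 libraries. The 6 h response was -1.32 (SE 0.68, edgeR adjusted p = 0.267), so the first groups in that order did not differ past the threshold, and the libraries of T3 at 6 h and vehicle at 24 h overlapped. At 24 h the gene was at least 6.22-fold lower under the T3 label, against a floor of 3 counts over the group (edgeR adjusted p = 0.0185), and the 95% counting limit, which also takes in the error of the 14 counts, was 4.42-fold. That call was lost with the GC and length correction (edgeR adjusted p = 0.0687), without vehicle replicate 1 (edgeR adjusted p = 0.0584) and without T3 replicate 2 (edgeR adjusted p = 0.0654) at 24 h, and DESeq2 gave no adjusted p. Over time AKR1C1 fell by 2.43 on the log2 scale under vehicle (SE 0.71, edgeR adjusted p = 0.00695). Under T3 it fell at least 11.2-fold against the same floor (counting limit 8.29-fold, edgeR adjusted p = 0.000279). AKR1C1 passed the filter on low counts only through 6 h libraries, so these 2 p-values are no support for the fall. The call under vehicle was lost without vehicle replicate 1 at 6 h (-1.99, edgeR adjusted p = 0.159) or vehicle replicate 2 at 24 h (-1.95, edgeR adjusted p = 0.108). Of the 50-base words in its longest transcript, 28.3% also occur in AKR1C2, so counts of the near-identical family members are uncertain individually.

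**Figure D2:**
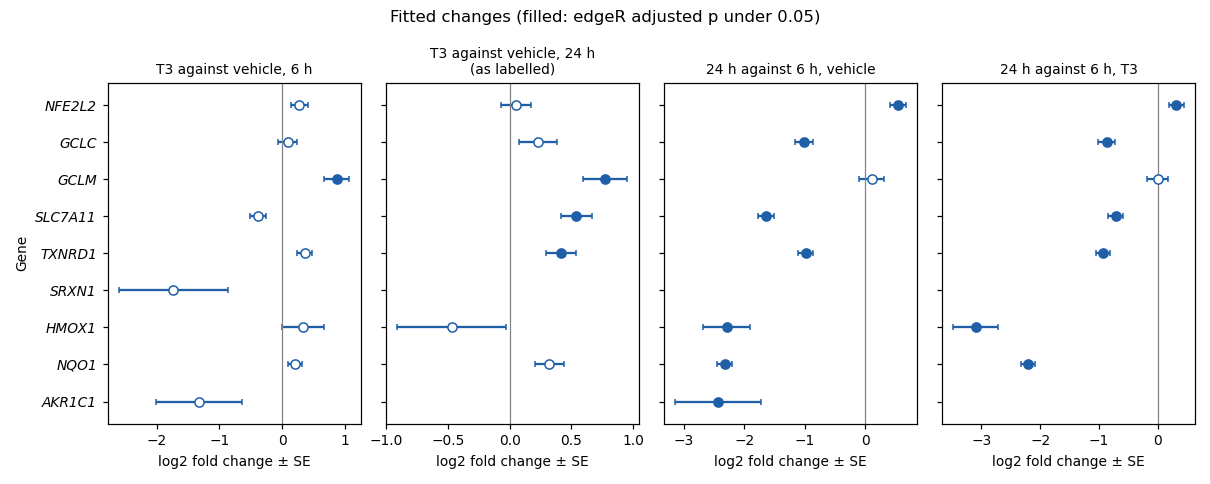
Log2 fold changes of the genes (points) with SE bars from the edgeR fit, in 1 panel per comparison; filled points passed an adjusted p of 0.05. AKR1C1 is left out where the group labelled T3 at 24 h, with 0 counts, is compared, and SRXN1 is drawn at 6 h only. NQO1 lies at -2.32 with time under vehicle and at 0.21 with T3 at 6 h, while GCLM lies at 0.10 and 0.88.

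Over the 9 genes, 7 fell and 1 (NFE2L2) rose from 6 h to 24 h under vehicle, where 64.5% of all tested genes were called (31.9% higher and 32.6% lower). Under T3 the counts were again 7 and 1, beside 70.4% of all tested genes (35.1% higher and 35.2% lower). The median log2 fold change of the 9 was -1.64 under vehicle and -0.93 under T3, beside 0.03 and 0.02 over all tested genes. These counts carry a reservation. The filter asked for 2.13 CPM in a group's worth of libraries, which SRXN1 reached in 2 and AKR1C1 in 3 libraries, all at 6 h, so both had to be lower at 24 h. The other 5 genes that fell, HMOX1, NQO1, GCLC, SLC7A11 and TXNRD1, reached that level at both times. They fell past the threshold in each of the 14 alternatives under either treatment. The comparisons with time under vehicle and under T3 use different libraries.

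For T3 at 6 h, 1 gene of the 9 was higher and 0 were lower, beside 3.78% and 3.86% of all tested genes. At an unadjusted edgeR p under 0.05, 2 were higher and 1 lower, a threshold at which all tested genes were not counted. Where DESeq2 called 772 of 12301 genes, 420 of them higher, it called 2 of the 9 higher and 0 lower. At 24 h, 3 were higher and 1 was lower in the libraries labelled T3, where 13.3% of all tested genes were called (5.58% higher and 7.75% lower). The median log2 fold change of the 9 was 0.21 at 6 h and 0.23 at 24 h, beside -0.02 and -0.01 over all tested genes, and with the GC and length trends removed 0 of the 9 were called at 24 h. Both medians are those of NQO1 and GCLC and do not rest on the fitted values of genes at 0 counts. For the difference between the responses 1 was higher and 0 were lower, beside 0.849% and 0.992% of all tested genes.

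Levels of different genes were compared as CPM per kilobase of exon in the GENCODE 29 annotation. In vehicle at 6 h TXNRD1 (168) and NQO1 (164 CPM per kilobase) were the most abundant. SLC7A11 (37.8) and NFE2L2 (22.1) followed, then GCLC (8.26), HMOX1 (6.50), GCLM (5.73), SRXN1 (1.52) and AKR1C1 (0.802 CPM per kilobase). At 24 h under the vehicle label TXNRD1 was still first at 84.8 CPM per kilobase. The length used is that of all exons merged, and the order of the middle genes depends on it. Per kilobase of the longest transcript, a setting chosen after seeing the data, NFE2L2 (46.4) stood above SLC7A11 (37.8) in vehicle at 6 h, and GCLC reached 18.7 CPM per kilobase.

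**Figure D3:**
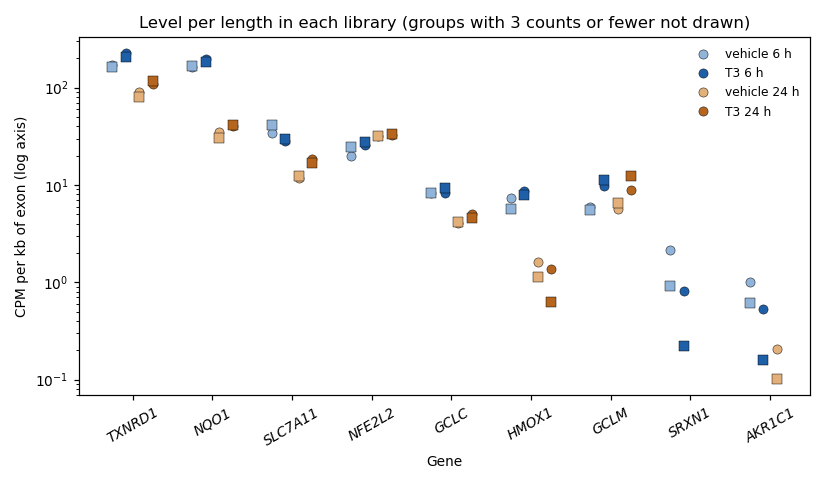
CPM per kilobase of exon (log axis) for each gene in each library, coloured by group, with circles for replicate 1 and squares for replicate 2; SRXN1 and AKR1C1 are drawn only where the group had more than 3 counts. TXNRD1 has the highest mean in every group, and the NQO1 mean drops from 164 to 32.8 CPM per kilobase between 6 h and 24 h under vehicle.

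A wider list of 56 genes of the same pathway, of which 54 were tested, was examined beside the 9. It held regulators of NRF2, and genes of glutathione, of thioredoxin and peroxiredoxin, of NADPH supply, of heme and iron, and of detoxification and efflux. With T3 at 6 h, 0 were higher and 2 lower, a share of 3.7% beside 7.64% of all tested genes. The median was -0.01 beside -0.02. At an unadjusted edgeR p under 0.05, 8 were higher and 4 lower, a threshold at which all tested genes were not counted. Where DESeq2 called 772 of 12301 genes, it called 0 of the 54 higher and 1 lower. NFE2L1, which encodes the NRF2 relative known for proteasome gene control, fell from 324 to 182 CPM (log2 fold change -0.83, SE 0.11, edgeR adjusted p = 0.000512), and the call was kept in all 14 alternatives. ABCC3, an efflux transporter, fell by 0.60 on the log2 scale (edgeR adjusted p = 0.0334), a call lost without any 1 library at 6 h.

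At 24 h, 3 of the 54 were higher and 11 lower under the T3 label, a share of 25.9% beside 13.3% of all tested genes, with a median of -0.03 beside -0.01. The higher genes were MGST1, a microsomal glutathione transferase (0.99, edgeR adjusted p = 0.00699), the NRF2 competitor BACH1 (0.53, edgeR adjusted p = 0.0235) and IDH1 (0.47, edgeR adjusted p = 0.0209), which makes NADPH in the cytosol. MGST1 was called in 13 of 14 alternatives, and BACH1 and IDH1 in 8 of 14 each. Among the largest falls were GPX1 (-0.92, edgeR adjusted p = 0.0325) and BLVRB (-0.84, edgeR adjusted p = 0.0458), which encode a glutathione peroxidase and a biliverdin reductase. GPX1 was called in 9 of 14 alternatives and BLVRB in 5. With 1 library left out, the BACH1 and IDH1 calls were lost without either T3 library at 6 h, or without replicate 2 of either group at 24 h. The GPX1 call was lost without vehicle replicate 1 or either T3 library at 24 h, and the BLVRB call was kept only without vehicle replicate 2 at 6 h or T3 replicate 2 at 24 h. Among the 6 genes of NADPH supply, 3 were lower, among them TALDO1 (-0.59, edgeR adjusted p = 0.0317) and TKT (-0.54, edgeR adjusted p = 0.0199), and 1, IDH1, was higher. TALDO1 and TKT, enzymes of the pentose phosphate pathway, are outside the rule for naming genes here and were chosen after their values were seen, and they were called in 6 and 11 of 14 alternatives. With the GC and length trends removed, 1 of the 54 was called at 24 h in place of 14. For the difference between the responses, 0 of the 54 were higher and 1 was lower.

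From 6 h to 24 h under vehicle, 8 of the 54 were higher and 37 lower, beside 31.9% and 32.6% of all tested genes, with a median of -1.24 beside 0.03. The filter level was reached at 1 time only by 6 of the 54, namely GSTA4, SLC40A1 and AKR1B10 at 24 h and AKR1C2, AKR1C3 and GGT1 at 6 h, so the direction of their change with time was fixed by the filter. Of the other 48, which reached it in at least 1 library at each time, 6 were higher and 34 lower. ABCC2, among the 34, reached it in only 1 library at 24 h. By group, 9 of 11 tested glutathione genes, all 3 of thioredoxin and peroxiredoxin, 5 of 6 of NADPH supply and 13 of 17 of detoxification and efflux were lower. The regulators were divided, with 4 higher and 4 lower of 10, and the heme and iron genes had 3 lower and 2 higher of 7. These counts by group include genes whose direction the filter fixed. They are GGT1, AKR1C2 and AKR1C3 among the lower, and GSTA4 and SLC40A1 among the higher. The largest rises were in GSTA4, a glutathione transferase (from 1 to 65 counts over the group, 36.1 times higher, 95% counting interval 6.26 to 1450), and the iron exporter SLC40A1 (from 2 to 51 counts, 14.2 times, interval 3.73 to 120). SLC40A1 was not called without vehicle replicate 1 at 6 h (edgeR adjusted p = 0.0511). BTRC, a subunit of another ligase that marks NRF2 for degradation, rose by 1.05 on the log2 scale (SE 0.17, edgeR adjusted p = 3.82e-05).

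AKR1C3 and AKR1C2, relatives of AKR1C1, fell from 70 and 24 counts over the group to 0, at least 42-fold and at least 14.4-fold against the floor of 3 counts (counting limits 33.3-fold and 10.8-fold). ABCC2, an efflux pump for glutathione conjugates, fell by 5.15 on the log2 scale (SE 0.36, edgeR adjusted p = 2.96e-09). It reached the filter level in 4 libraries at 6 h and in 1 at 24 h. It thus passed through 6 h libraries, and this p-value is no support for the fall. Among genes chosen after their values were seen, the NRF2 inhibitor KEAP1 fell from 123 to 41.0 CPM under vehicle (edgeR adjusted p = 8.81e-08). The thioredoxin gene TXN fell from 316 to 80.1 CPM (edgeR adjusted p = 1.14e-09) and the ferritin gene FTH1 from 5673 to 693 CPM (edgeR adjusted p = 5.45e-12).

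Under T3 the same step gave 11 higher and 36 lower of the 54, beside 35.1% and 35.2% of all tested genes, with a median of -1.34 beside 0.02. Of the 48 genes that reached the filter level at both times, ABCC2 in only 1 library at 24 h, 8 were higher and 33 lower. SLC40A1, GSTA4, AKR1B10 and AKR1C3 are not among these 48. The filter fixed the direction of their change, so the p-values and calls given for them are no support for it. SLC40A1 rose from 1 to 144 counts over the group (85.8 times, interval 15.2 to 3410) and GSTA4 by 2.41 on the log2 scale (SE 0.58, edgeR adjusted p = 0.00128). AKR1B10, another aldo-keto reductase, rose by 2.19 (SE 0.91, edgeR adjusted p = 0.0403) and was called in 5 of 14 alternatives. AKR1C3 fell from 80 counts to 0, at least 44.8-fold against the floor (counting limit 35.6-fold). TKT, which encodes transketolase, fell by 5.15 (SE 0.16, edgeR adjusted p = 7.94e-14) and ABCC2 by 4.82 (SE 0.33, edgeR adjusted p = 1.22e-09) on the log2 scale. ABCC2 passed the filter through 6 h libraries, so its p-value is no support for the fall.

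**Figure D4:**
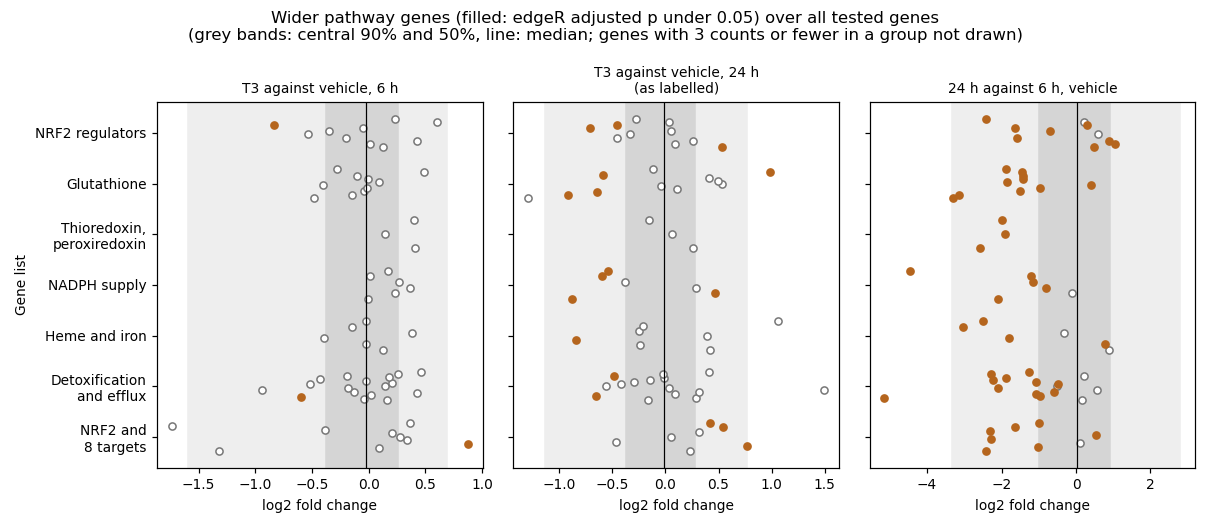
Log2 fold changes of the 54 tested pathway genes, by list, and of NRF2 with its 8 targets (bottom row), in 3 comparisons; filled points passed an edgeR adjusted p of 0.05, grey bands hold the central 50% and 90% of all tested genes, and the line is their median. Genes with 3 counts or fewer in a compared group are not drawn (2, 4 and 5 of 63, from left to right). Most filled points lie left of the median in the comparison of 24 h with 6 h, and few are filled at 6 h.

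Targets of other stress regulators were counted at 6 h, where 3.78% of all tested genes were higher and 3.86% lower, with a median of -0.02. Of 10 ATF4 targets, 6 were lower and 0 higher with T3 (3 lower without T3 replicate 2 at 6 h), with a median of -0.77. Of 8 HSF1 targets, which are chaperones, 6 were higher and 0 lower, with a median of 1.07. Of 5 metal-response genes, which are metallothioneins and a zinc exporter, 4 were higher and 0 lower, with a median of 2.33. For the difference between the responses, in which 0.849% of all tested genes were higher and 0.992% lower, 5 of the ATF4 targets were higher (1 to 3 without any 1 library at 6 h), and 7 of the HSF1 targets and 4 of the metal-response genes were lower. Their part in the responses of SLC7A11, HMOX1 and the other targets was not tested.

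The genes with the most similar profiles were taken by Pearson's r of log2 CPM over the 8 libraries, among 11572 genes with a mean of at least 5 CPM. GCLM was closest to CCNC (0.9753) and OSGIN2 (0.966), SLC7A11 to SLC39A10 (0.9921) and PAM (0.9884), and TXNRD1 to GOLPH3 (0.9949) and DKK1 (0.9925). NQO1 was closest to MUC16 (0.9995) and RRM1 (0.9991), HMOX1 to RUVBL2 (0.9969), GCLC to MCTP2 (0.9965) and NFE2L2 to ZUFSP (0.9917). SRXN1 and AKR1C1, with few counts, were closest to NDUFA10 (0.9839) and CAPG (0.9871). The libraries fall into sets by time, and these values carry that shared step.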

How the data were processed

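RNA of 8 libraries (4 groups of 2) was sequenced. The deposited values were raw counts of reads per gene symbol, 1 column per library. The authors worked on build hg38 with CASAVA 1.7, STAR 2.7, HTSeq and DESeq2, per the submitters' processing notes. The sources used here give no annotation release or strand setting. The 5 summary rows were left out. Reads counted in genes were 12.9% to 17.1% of each table at 6 h and 19.5% to 24.4% at 24 h. Reads not aligned uniquely were 61.2% to 67.4% at 6 h and 47.6% to 57.1% at 24 h. Both shares thus split by time, and their part in the changes with time was not tested.

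The gene test was that of edgeR 4.0.16 under R 4.3.3 (TMM, filterByExpr, robust quasi-likelihood F test, all 8 libraries, 4 residual degrees of freedom). Of 56832 rows 14611 were tested. P-values were adjusted by Benjamini-Hochberg over all of them, with a threshold of 0.05. Intervals are exact 95% binomial intervals and, like the floor of 3 counts, cover counting error only, since no molecular identifiers mark independent molecules. Alternatives were a replicate block, other size factors, DESeq2 1.42.0, no filter, removal of each library's GC and length trend (GENCODE 29, lowess span 0.3, genes with an annotation), only the libraries compared, and each library left out, where the lone library is assumed to vary like the other groups. The model was also run on simulated counts with set changes, and no result above rests on that run.

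The 9 genes, the lists and the tests were chosen with earlier results of these data known. Named pathway genes were the 3 largest rises and 3 largest falls per comparison among called genes whose groups did not overlap and whose mean reached 1 CPM. For each of the 9 genes, up to 2 most similar profiles were named. A gene that this rule names and a marker gene are not reported here.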

Additional observations from a re-analysis of the deposited data

Results flagged for a closer look

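For SLC7A11, the cystine transporter gene, the T3 response at 24 h, as labelled, exceeded that at 6 h by 0.92 on the log2 scale (SE 0.18, edgeR interaction test, adjusted p = 0.0119). The difference was called in 10 of 13 alternatives. The 6 h response alone did not pass (edgeR adjusted p = 0.0708). With the GC and length trends removed, the 24 h response was 0.09. The libraries labelled T3 were below vehicle at 6 h (2 of 2) and above it at 24 h (2 of 2). At 24 h KLF9 and HR went against the labels. With the 24 h labels exchanged, the difference would be -0.16. GCLM and TXNRD1, with positive fitted T3 responses at both times as labelled, would then have responses of opposite sign. No other of the 9 genes passed this test, and the remaining adjusted p-values ran upward from 0.207.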

How the results depend on the processing

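The falls of HMOX1, NQO1, GCLC, SLC7A11 and TXNRD1 from 6 h to 24 h kept their direction and call in all alternatives. For GCLM the GC and length correction turned the change with time to -0.73 under vehicle and -0.84 under T3. Of the 9 genes, 1 was called for T3 at 6 h, against 2 with DESeq2, 2 with no filter, 4 with only the libraries compared and 0 to 3 leaving out 1 library. At 24 h 4 were called, against 0 with the GC and length correction, 2 with only the libraries compared and 1 to 3 leaving out 1 library. For the difference between the responses the count was 1, and 0 to 1 leaving out 1 library. With time it was 8 under either treatment, and 6 to 8 leaving out 1 library.

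Of the 54 pathway genes, 2 were called at 6 h, against 1 with DESeq2, 5 with no filter, 13 with only the libraries compared and 1 to 7 leaving out 1 library. At 24 h 14 were called, against 1 with the GC and length correction, 5 with only the libraries compared and 8 to 15 leaving out 1 library. For the difference 1 was called, against 2 with DESeq2, 7 with no filter, 0 with the GC and length correction and 0 to 5 leaving out 1 library. With time 45 were called under vehicle (40 to 45) and 47 under T3 (44 to 48). Except where the construction shows it, the cause was not tested.

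Over all genes, 1117 were called at 6 h, against 459 with the GC and length correction, 2898 with only the libraries compared and 131 to 1681 leaving out 1 library. At 24 h 1948 were called, against 1200 with DESeq2, 169 with the correction and 702 with only the libraries compared. For the difference 269 were called, against 674 with no filter and 49 to 750 leaving out 1 library.

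Same-numbered libraries did not deviate together (correlations of -0.00362 at 6 h and -0.0437 at 24 h). These values cannot show whether such libraries share a culture or a preparation. With the replicate block, calls among the 9 genes were 1 at 6 h, 3 at 24 h, 8 with time under vehicle, 8 under T3 and 1 for the difference, and among pathway genes 2, 12, 44, 45 and 1. Only the libraries compared was not run for the difference. At this depth SRXN1 and AKR1C1 could not be measured at 24 h below about 0.21 to 0.28 CPM over a group.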
